A study of Rattus norvegicus with 26 samples.

Results

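The chemokine genes Cxcl6, Ccl2, Ccl20, Cxcl1 and Cxcl2 were followed across 26 arrays of rat hepatocytes. All probe sets that the platform's probe-to-gene table assigns to 1 of these genes alone were taken, which gave 5 of the 8799 probe sets on the array, for 4 of the 5 genes and among 4736 genes with a probe set of their own. Cxcl6, Ccl20 and Cxcl2 had 1 probe set each. Ccl2 had 2, named for the coding region and for the mRNA of the same sequence record, so they share their target and are not independent measurements. The table lists no probe set under Cxcl1, whose level is not analysed here. The genes were picked from responses measured on these arrays, among them the TCDD dose trends of Cxcl6 and Ccl2. Their TCDD values, and every difference between doses or chemicals in which a TCDD value takes part, are therefore given as a description with no test. The differences between pools rest on all arrays, TCDD included, and are given with limma's p-values. Whether PCB 126 values also entered the choice is not recorded, so the p-values given for PCB 126 hold only if they did not.

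The cells were primary hepatocytes of female Sprague Dawley rats, in the Charles River stock Crl:CD(SD)IGS BR, whose age is not given in the labels. Cells of 2 pools of 3 animals each were cultured for 48 hours in 0.5% DMSO as vehicle, in TCDD or in PCB 126. TCDD is a dioxin and PCB 126 is a biphenyl that can lie flat, and both are known ligands of the aryl hydrocarbon receptor (AhR). Both pools received 5 doses of TCDD, which were 0.01 pM, 1 pM, 0.1 nM, 10 nM and 316 nM, and 5 of PCB 126, which were 1 pM, 0.1 nM, 10 nM, 1 µM and 10 µM. Pool 2 alone also received 10 pM and 1 nM of each chemical. Each group therefore holds 1 array per pool, 11 arrays of pool 1 and 15 of pool 2 in all, and each pool is 1 mixture of animals. Nothing in the labels says that arrays of a pool came from separate cultures, so the p-values reflect array-to-array spread, which may be technical.

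Chemokines are small secreted proteins that attract leukocytes through receptors on the cell surface. Cxcl6, Cxcl1 and Cxcl2 belong to the CXC ligands that recruit neutrophils through the receptor Cxcr2, Ccl2 recruits monocytes through Ccr2, and Ccl20 recruits lymphocytes and dendritic cells through Ccr6. In the liver they are made by hepatocytes, Kupffer cells and stellate cells in inflammation, and NF-kB, the transcription factor downstream of interleukin 1 and tumour necrosis factor, is a known activator of their genes.

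The bases before the start site are shown for the 3 measured members that the RefSeq promoter table holds (build GRCr8), because Cxcl6 and Ccl20 had dose slopes above 0 with both chemicals and Cxcl2 had slopes near 0. Each stretch is the 250 bases upstream of the start, read on the gene's strand. Capitals mark matches on either strand to the NF-kB consensus and to the core motif bound by the AhR, GCGTG, which reads CACGC on the other strand.
Cxcl6, chr14:17596418-17596667, minus strand: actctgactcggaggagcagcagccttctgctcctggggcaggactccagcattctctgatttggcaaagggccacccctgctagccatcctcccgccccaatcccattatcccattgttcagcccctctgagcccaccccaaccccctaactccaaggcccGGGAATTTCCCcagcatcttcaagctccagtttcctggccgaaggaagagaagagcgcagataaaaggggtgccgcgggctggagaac
Ccl20, chr9:91836909-91837158, plus strand: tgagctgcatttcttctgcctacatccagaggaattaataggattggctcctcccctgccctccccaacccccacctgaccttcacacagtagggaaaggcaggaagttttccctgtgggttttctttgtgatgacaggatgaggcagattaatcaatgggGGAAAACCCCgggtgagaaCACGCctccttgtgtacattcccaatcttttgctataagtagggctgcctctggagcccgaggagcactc
Cxcl2, chr14:17467256-17467505, minus strand: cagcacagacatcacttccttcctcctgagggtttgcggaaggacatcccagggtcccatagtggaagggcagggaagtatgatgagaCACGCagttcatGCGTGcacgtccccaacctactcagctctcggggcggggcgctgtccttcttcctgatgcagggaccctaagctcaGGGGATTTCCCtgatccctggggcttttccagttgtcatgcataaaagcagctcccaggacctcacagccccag
Matches to the NF-kB consensus formed 1 stretch in each window. They began 88 bases before the start of Cxcl6, 89 before that of Ccl20 and 74 before that of Cxcl2. In Cxcl6 and Cxcl2 the stretch holds 2 matches that overlap each other. The window of Cxcl1, not printed, also held the consensus, and 3.54% of 33465 promoter windows of this length did. The AhR core motif was absent from the Cxcl6 window, present once in that of Ccl20 and present 2 times in that of Cxcl2, and 25.9% of all windows held it. A match to these letters is a description of the sequence and not a measured binding site. Cxcl2, Cxcl1, Cxcl3 and Cxcl6 lie near each other on chromosome 14 in the RefSeq gene list. Ccl2 has no entry in the promoter table.

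Array medians were 3.85 ± 0.08 log2 (SD, n = 11) in pool 1 and 3.58 ± 0.07 log2 (SD, n = 15) in pool 2, and the depth of an array is limited by the number of its probes. The hepatocyte marker albumin (Alb) lay between 13.72 and 14.50 log2 on all 26 arrays. It stands for presence of hepatocytes only, and the measured hepatocyte markers are counted with the other cell markers below. Cyp1a1, the P450 that the AhR induces, was at 3.45 and 3.28 log2 in the vehicle arrays of pools 1 and 2 and at 12.77 and 11.69 log2 at 316 nM TCDD. Cyp1a1 was 3.21 log2 in pool 1 at 1 pM PCB 126 but 10.80 log2 on the pool 2 array labelled 1 pM PCB 126, above the 7.91 log2 of pool 2 at 10 pM, so that array stood apart from its neighbours. Without it, the PCB 126 dose slopes of the chemokines were 0.47 ± 0.14 log2 per decade for Cxcl6, 0.23 ± 0.06 and 0.17 ± 0.06 for the coding-region and mRNA probe sets of Ccl2, 0.20 ± 0.05 for Ccl20 and -0.01 ± 0.05 for Cxcl2 (SE). The calls of the PCB 126 slopes given further on were the same without it.

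The values carry no detection calls, so the median of all values, 3.71 log2, served as a mark for dim signals. All 5 chemokine probe sets passed the low-value filter, which asked that the second-highest value exceed that median. Cxcl6 lay below the median on 11 of 26 arrays, 4 of pool 1 and 7 of pool 2. Its low-dose values are therefore near background, and folds over them are uncertain. All 10 of its arrays in vehicle or at 10 pM or less of either chemical lay below the median, so it passed the filter through its arrays at higher doses. The other 4 probe sets were above the median on all 26 arrays.

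Cxcl6, the neutrophil attractant, had the widest range of the chemokine probe sets. Its vehicle arrays were at 2.85 log2 in pool 1 and 1.5 in pool 2. In pool 1, TCDD gave 2.77 log2 at 0.01 pM, 1.77 at 1 pM, 6.5 at 0.1 nM, 7.75 at 10 nM and 8.15 at 316 nM. In pool 2, TCDD gave 2.13 log2 at 0.01 pM, 2.59 at 1 pM, 3.51 at 10 pM, 3.99 at 0.1 nM, 5.71 at 1 nM, 6.33 at 10 nM and 4.27 at 316 nM. Pool 1 was high from 0.1 nM on, whereas pool 2 climbed in smaller steps to 10 nM and was lower again at the highest dose. With PCB 126, pool 1 gave 3.54 log2 at 1 pM, 4.23 at 0.1 nM, 7.25 at 10 nM, 7.16 at 1 µM and 5.45 at 10 µM. With PCB 126, pool 2 gave 3.65 log2 at 1 pM, 2.42 at 10 pM, 3.06 at 0.1 nM, 5.11 at 1 nM, 6.06 at 10 nM, 5.90 at 1 µM and 5.40 at 10 µM. Both pools were high from the nanomolar doses on and highest at 10 nM.

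Ccl2, the monocyte attractant, was well above the median of all values without treatment. On its coding-region probe set the vehicle arrays were at 9.08 log2 in pool 1 and 6.96 in pool 2. In pool 1, TCDD gave 9.22 log2 at 0.01 pM, 8.79 at 1 pM, 10.43 at 0.1 nM, 11.14 at 10 nM and 10.92 at 316 nM. In pool 2, TCDD gave 6.83 log2 at 0.01 pM, 7.67 at 1 pM, 8.38 at 10 pM, 8.54 at 0.1 nM, 9.16 at 1 nM, 9.42 at 10 nM and 8.57 at 316 nM. Every array at 1 nM TCDD or more was above the vehicle and low-dose arrays of its pool. With PCB 126, pool 1 gave 9.37 log2 at 1 pM, 9.75 at 0.1 nM, 10.61 at 10 nM, 10.81 at 1 µM and 9.88 at 10 µM. With PCB 126, pool 2 gave 8.02 log2 at 1 pM, 7.32 at 10 pM, 7.91 at 0.1 nM, 8.93 at 1 nM, 9.54 at 10 nM, 9.50 at 1 µM and 9.45 at 10 µM. Pool 1 fell back towards its vehicle value at 10 µM and pool 2 stayed level from 10 nM on. The mRNA probe set ran from 8.73 to 11.29 log2 in pool 1 and from 7.49 to 10.07 log2 in pool 2. Its values followed those of the coding-region probe set, with r = 0.965 over the 26 arrays after each pool's mean was removed.

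Ccl20, the ligand of Ccr6, moved over a smaller range. Its vehicle arrays were at 6.35 log2 in pool 1 and 5.02 in pool 2. In pool 1, TCDD gave 5.42 log2 at 0.01 pM, 6.15 at 1 pM, 6.52 at 0.1 nM, 7.10 at 10 nM and 7.31 at 316 nM. In pool 2, TCDD gave 4.96 log2 at 0.01 pM, 5.70 at 1 pM, 6.02 at 10 pM, 5.83 at 0.1 nM, 6.71 at 1 nM, 6.20 at 10 nM and 5.85 at 316 nM. The pool 2 array at 316 nM was no higher than that at 10 pM, so high and low doses of TCDD overlapped in pool 2. With PCB 126, pool 1 gave 5.90 log2 at 1 pM, 6.52 at 0.1 nM, 7.01 at 10 nM, 7.33 at 1 µM and 6.94 at 10 µM. With PCB 126, pool 2 gave 5.64 log2 at 1 pM, 4.73 at 10 pM, 5.31 at 0.1 nM, 5.57 at 1 nM, 6.22 at 10 nM, 6.41 at 1 µM and 5.99 at 10 µM. Both pools had their highest PCB 126 value at 1 µM.

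Cxcl2, another neutrophil attractant, was at 5.96 and 5.29 log2 in the vehicle arrays of pools 1 and 2. Over all arrays it ran from 5.65 to 6.62 log2 in pool 1 and from 4.74 to 6.41 log2 in pool 2. The highest value of pool 2 was at 10 pM TCDD and the lowest at 10 µM PCB 126, with no steady course over the doses.

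**Figure D1:**
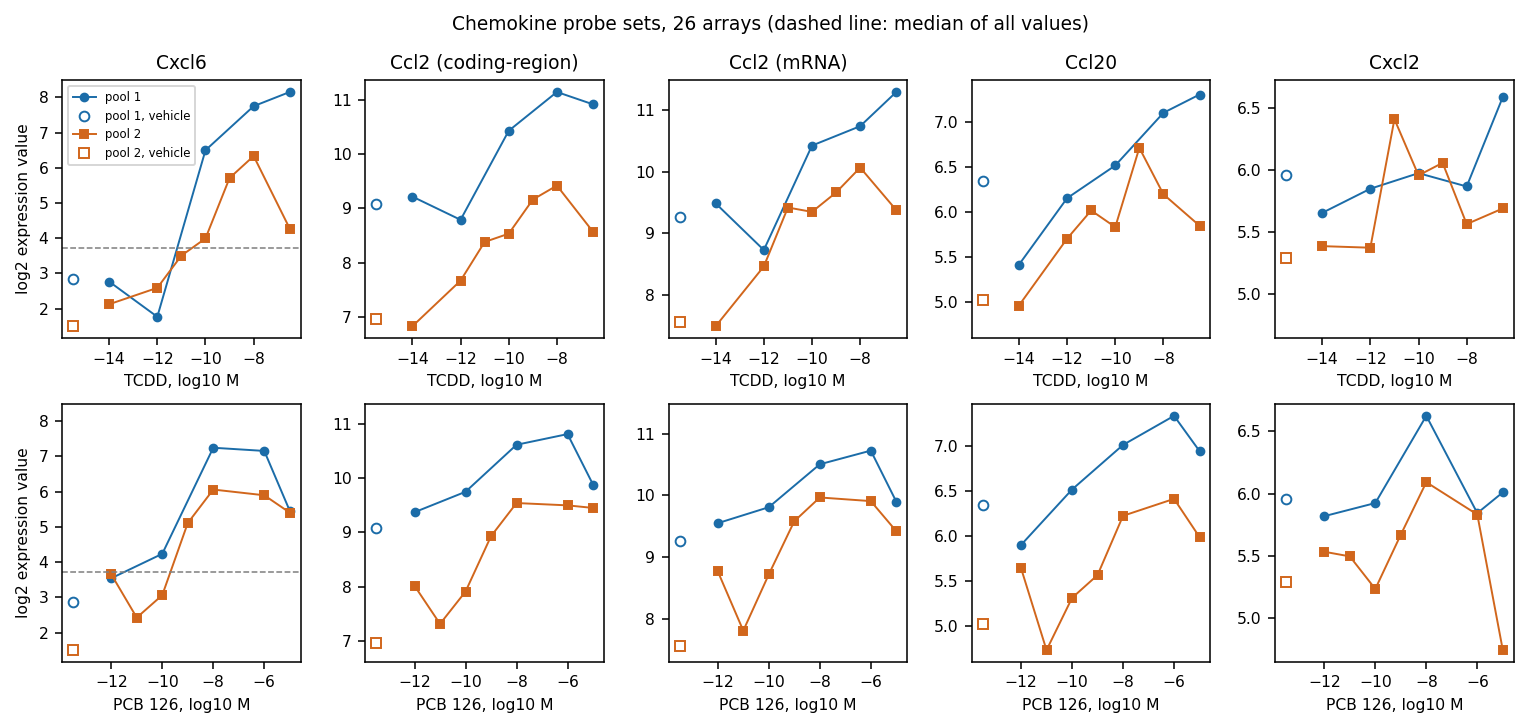
log2 expression value (vertical axes, 1 scale per probe set) against log10 molar dose of TCDD (upper panels) and PCB 126 (lower panels), 1 point per array, with circles for pool 1, squares for pool 2, open symbols for vehicle and the median of all values, 3.71, as a dashed line on the Cxcl6 panels. Cxcl6 ran from 1.5 to 8.15 and crossed the dashed line as the dose rose, Ccl2 and Ccl20 rose in smaller steps, and Cxcl2 stayed between 4.74 and 6.62.

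Levels were set in order over the 15 groups after adjustment for the pool. The adjusted levels are fitted values on the scale of pool 1, not means over both pools. For Cxcl6 the adjusted level was highest at 10 nM TCDD, 7.61 log2, followed by 7.22 at 10 nM PCB 126 and 7.10 at 1 µM PCB 126, and lowest in vehicle, 2.75. The coding-region probe set of Ccl2 was likewise highest at 10 nM TCDD, 11.08 log2, and lowest in vehicle, 8.82. Ccl20 was highest at 1 nM TCDD, 7.57 log2, and lowest at 10 pM PCB 126, 5.59. Neither in these 3 orders nor in those of the Ccl2 mRNA probe set and Cxcl2 did the 95% interval of a neighbouring gap exclude 0. Sorting by these same values makes the gaps between neighbours small, so this does not show that groups were alike.

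Separation was scored as all arrays of a chemical at 1 nM or more lying above the vehicle arrays and those at 10 pM or less, within each pool. For PCB 126 both probe sets of Ccl2, which lay above the median on all arrays, separated in this way, where 3% of the 5197 probe sets that passed the filter did. Cxcl6 also separated, but it had passed the filter through those same higher doses, and nothing is read from it. For TCDD, Cxcl6 and the coding-region probe set of Ccl2 separated, beside 2.56% of all, and the choice of the genes used that contrast. The Ccl2 mRNA probe set missed it for TCDD because pool 2 was at 9.42 log2 at 10 pM and 9.37 log2 at 316 nM. Ccl20 and Cxcl2 separated for neither chemical.

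The slope of a probe set on log10 dose was fitted within each chemical with limma, with the pool as a block, and is given in log2 per 10-fold rise in dose. For TCDD it was 0.68 ± 0.13 (SE, 12 TCDD arrays) for Cxcl6, 0.30 ± 0.06 and 0.29 ± 0.06 for the coding-region and mRNA probe sets of Ccl2, 0.19 ± 0.04 for Ccl20 and 0.06 ± 0.04 for Cxcl2. The median slope of all 5197 probe sets was -0.01. The TCDD array of pool 2 at 316 nM lowered these slopes, and without it Cxcl6 had 0.83, the coding-region probe set of Ccl2 0.36 and Ccl20 0.24.

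With PCB 126, Ccl20 and 1 of the 2 probe sets of Ccl2 rose with the dose. Ccl20 rose by 0.17 ± 0.04 log2 per decade (SE, 12 PCB 126 arrays, limma, Benjamini-Hochberg adjusted p = 0.0225). The coding-region probe set of Ccl2 rose by 0.22 ± 0.06 (limma adjusted p = 0.0275). These were 2 of the 5 chemokine probe sets, where 4.25% of all 5197 were called in either direction and 1.56% upward. The mRNA probe set of Ccl2 had a slope of 0.16 ± 0.06, in the same direction, and was not called (limma adjusted p = 0.116). Cxcl6 had the steepest PCB 126 slope of the 5, 0.42 ± 0.13. It had passed the filter through its higher doses, so its slope is a description and no test is read from it. Cxcl2 had -0.01 ± 0.04 (limma adjusted p = 0.952).

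These PCB 126 calls stood near the threshold. Ccl20 was no longer called without the pool 2 array at 10 pM (limma adjusted p = 0.0722), the pool 1 array at 1 pM (0.105) or the pool 2 array at 1 µM (0.0559). Ccl2 on its coding-region probe set was no longer called without any of those 3 arrays (0.081, 0.101 and 0.0668) or without the pool 2 array at 10 µM (0.0975). Both calls were also lost when each array was centred on its median (limma adjusted p = 0.05001 for the Ccl2 coding-region probe set and 0.0581 for Ccl20), with no pool block (0.497 and 0.26), on the doses given to both pools (0.0971 and 0.0586), in pool 1 alone (0.994 and 0.417) and in pool 2 alone (0.0534 and 0.183). The Ccl2 call was lost when both probe sets of the gene were averaged (limma adjusted p = 0.0516). The Cxcl6 slope, given as a description, was 0.53 log2 per decade without the pool 1 array at 10 µM. It was 0.42 without the TCDD array of pool 1 at 1 pM and 0.43 without that of pool 2 at 316 nM. The Ccl2 mRNA probe set became called without the pool 1 array at 10 µM (0.21, limma adjusted p = 0.0431). A straight line on log10 dose also describes a course that levels off poorly. With the highest dose of each chemical left out, the Cxcl6 slope was 0.63. That of the Ccl2 mRNA probe set was then 0.27 (limma adjusted p = 0.0315).

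**Figure D2:**
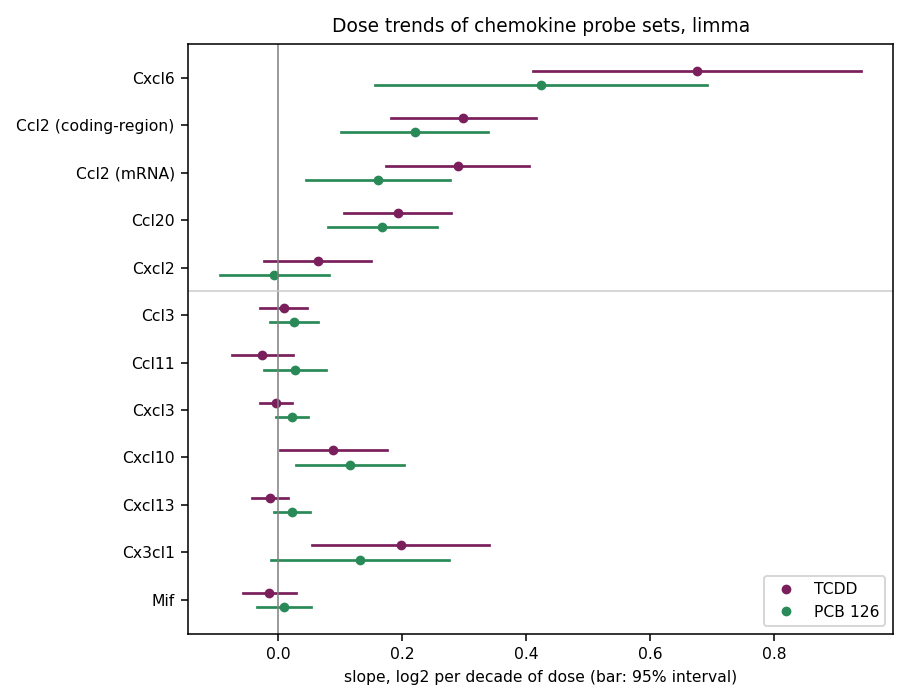
Slopes on log10 dose in log2 per decade (horizontal axis) with 95% intervals from limma, for the 5 chemokine probe sets above the line and 7 other measured chemokines below it, in purple for TCDD (12 arrays) and green for PCB 126 (12 arrays). Cxcl6 lies farthest to the right for both chemicals, at 0.68 and 0.42, Ccl2 and Ccl20 lie between 0.16 and 0.30, and Cxcl2 and most other chemokines lie near 0.

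The slopes of TCDD and PCB 126 were then set against each other for each probe set. Because TCDD values led to the choice of the genes, these differences are a description. The difference, TCDD minus PCB 126, was 0.25 log2 per decade for Cxcl6 (95% interval -0.12 to 0.63). It was 0.08 (-0.09 to 0.25) and 0.13 (-0.04 to 0.29) for the coding-region and mRNA probe sets of Ccl2. It was 0.02 for Ccl20 (-0.10 to 0.15) and 0.07 for Cxcl2 (-0.05 to 0.19). The median difference over all 5197 probe sets was -0.01. The intervals leave room for a TCDD slope of Cxcl6 above or below that of PCB 126.

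The values at the 5 doses given of both chemicals were compared in the same way, in 25 pairs, with 2 arrays per chemical at 1 pM, 0.1 nM and 10 nM and 1 array, of pool 2, at 10 pM and 1 nM. These too are a description. At 10 nM, where Cxcl6 peaked, TCDD minus PCB 126 was 0.39 log2 for Cxcl6 (95% interval -1.35 to 2.12), 0.21 (-0.60 to 1.02) for the Ccl2 coding-region probe set and 0.03 (-0.55 to 0.62) for Ccl20. At 0.1 nM the Cxcl6 difference was 1.60 log2 (95% interval -0.14 to 3.33), with 6.5 against 4.23 in pool 1 and 3.99 against 3.06 in pool 2. TCDD was the higher of the chemicals in both pools.

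The doses measured in pool 2 alone rest on 1 array per chemical. At 10 pM, Ccl20 was 1.29 log2 higher with TCDD (95% interval 0.46 to 2.11), the Ccl2 mRNA probe set 1.61 higher (0.48 to 2.74) and Cxcl2 0.91 higher (0.10 to 1.72). At 1 nM, Ccl20 was 1.15 log2 higher with TCDD (0.32 to 1.97). At 10 nM, with both pools, Cxcl2 had a difference of -0.64 log2 (-1.22 to -0.07), so PCB 126 was higher. The pairs named so far in this paragraph were picked because their intervals exclude 0. The intervals of all other matched pairs included 0. None of these intervals is adjusted for the number of pairs or of probe sets. At 10 pM many probe sets outside the chemokines also had intervals that excluded 0. Fewer did at 1 nM, and at 10 nM 103 of all 5197 did. The lower and upper quartiles of the difference over all probe sets were -0.18 and 0.25 log2 at 10 pM. They were -0.13 and 0.10 at 1 nM and -0.08 and 0.12 at 10 nM. Whether such gaps are particular to these genes was not tested. At 1 pM the Cxcl6 difference was -1.42 log2 (-3.15 to 0.32). It was -0.73 without the pool 2 array labelled 1 pM PCB 126, in which Cyp1a1 was high.

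**Figure D3:**
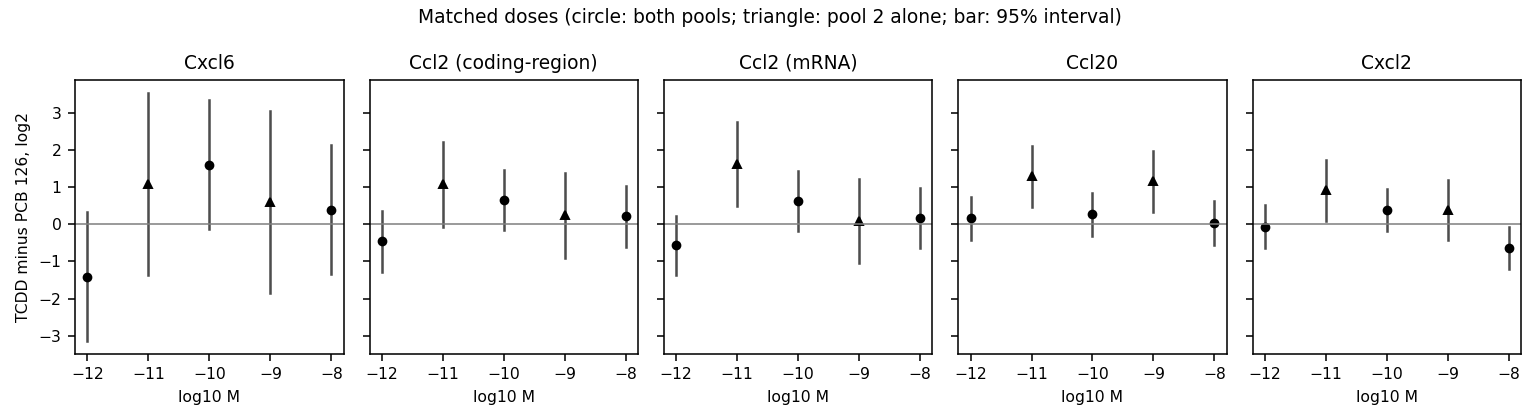
Difference TCDD minus PCB 126 in log2 (vertical axis, shared) at the 5 doses given of both chemicals (horizontal axis, log10 molar), with circles for doses measured in both pools, triangles for pool 2 alone and bars for 95% intervals from limma. The Cxcl6 intervals are the widest. The Ccl20 differences at the doses measured in pool 2 alone, 1.29 and 1.15, lie above 0. They rest on 1 array per chemical, and the intervals are not adjusted for the number of pairs.

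The mean of the top 2 doses of each chemical was set against the vehicle, which both chemicals share and which has 1 array per pool. These values are a description. With TCDD at 10 nM and 316 nM, Cxcl6 was 4.45 ± 0.69 log2 above vehicle (SE), 21.8-fold, Ccl2 was 2.00 ± 0.33 above on the coding-region probe set, 3.99-fold, and Ccl20 0.93 ± 0.24, 1.90-fold. With PCB 126 at 1 µM and 10 µM, Cxcl6 was 3.80 ± 0.69 above, 13.9-fold, the coding-region probe set of Ccl2 1.89 ± 0.33, 3.71-fold, and Ccl20 0.98 ± 0.24, 1.98-fold. Cxcl2 had 0.30 ± 0.23 with TCDD and -0.02 ± 0.23 with PCB 126. The fold of Cxcl6 rests on vehicle values below the median of all values. The Cxcl6 difference with TCDD was 3.69 log2 without the pool 1 array at 316 nM and 5.202 without the pool 2 array at that dose.

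Levels at the highest doses were set against those at 10 nM. For Cxcl6, 316 nM minus 10 nM TCDD was -0.83 log2 (95% interval -2.56 to 0.90), with the pools moving in opposite directions, from 7.75 to 8.15 in pool 1 and from 6.33 to 4.27 in pool 2. For Cxcl6, 1 µM and 10 µM minus 10 nM PCB 126 was -0.68 log2 (-2.18 to 0.83, limma adjusted p = 0.947). The same PCB 126 contrast was -0.17 (-0.87 to 0.53) for the Ccl2 coding-region probe set, 0.05 (-0.46 to 0.56) for Ccl20 and -0.75 (-1.25 to -0.25, limma adjusted p = 0.947) for Cxcl2. limma called 0 of the 5 chemokine probe sets and 0% of all in the PCB 126 contrast, and Cxcl2 was the 1 of them with an unadjusted p under 0.05.

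All 5 chemokine probe sets were lower in pool 2 than in pool 1. Pool 2 minus pool 1 was -1.57 log2 for the Ccl2 coding-region probe set (limma adjusted p = 9.93e-08), -0.998 for the Ccl2 mRNA probe set (adjusted p = 4.63e-05), -0.83 for Ccl20 (1.27e-05), -1.08 for Cxcl6 (0.028) and -0.39 for Cxcl2 (0.015). All 5 were called, and so were 39.7% of all probe sets in this direction and 79.8% in either. Centring each array on its own median moved the median of all probe sets from 0.02 to 0.30 and the chemokine values to -0.81 for Cxcl6 and -0.12 for Cxcl2, both then not called, while Ccl2 and Ccl20 were still called lower. The animals and the handling of a pool cannot be told apart.

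The slopes of the pools were set side by side. The TCDD slope of Cxcl6 was 0.89 ± 0.19 log2 per decade in pool 1 and 0.48 ± 0.18 in pool 2, a difference of -0.41 (95% interval -0.96 to 0.14). The Ccl2 coding-region slopes with TCDD were 0.31 and 0.29, and those of Ccl20 were 0.25 and 0.14. With PCB 126 the slopes in pools 1 and 2 were 0.41 and 0.44 for Cxcl6, 0.13 and 0.30 for the Ccl2 coding-region probe set and 0.17 and 0.16 for Ccl20. limma called a pool difference of the PCB 126 slope for 0 of the 5 and for 0% of all probe sets, and none of the 5 had an unadjusted p under 0.05.

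Over the 26 arrays, with each pool's mean removed, Cxcl6 and Ccl2 followed each other closely, with r = 0.952 for the coding-region and 0.925 for the mRNA probe set of Ccl2. Ccl20 had r of 0.839 with Cxcl6 and 0.844 with the Ccl2 coding-region probe set. Cxcl2 followed the others less, with r from 0.356 to 0.509. These values describe arrays that share doses and pools. After Ccl2, the genes most like Cxcl6 by this measure were Rhob (r = 0.934), the lipopolysaccharide-binding protein Lbp (0.930), the lysosomal protease Ctsl (0.926) and Cyp1b1 (0.920), another P450 of the AhR response. Those most like Ccl2 on its brighter probe set, after Cxcl6, were Neurl3 (0.895), Cyp1b1 (0.889), Cyp1a2 (0.883) and the phosphodiesterase Pde4b (0.880). Those most like Ccl20 were the paraoxonase Pon1 (0.904), Lbp (0.880), the apolipoprotein Apob (0.878), Slc41a2 (0.872) and the mitochondrial superoxide dismutase Sod2 (0.866). Cxcl2 was most like Nktr (0.718), Pold3 (0.701), the kinase Prkcd (0.693), Agtr1a (0.689) and Icam1 (0.670).

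No other measured chemokine was called. The gene and marker lists used from here on were made with earlier results of these data known. The p-values of listed genes therefore hold only if those results did not enter the lists. Of 28 listed, 12 were on the array under their own symbol and 7 passed the filter, and limma called 0 of the 7 for either chemical, beside 3.1% of all probe sets for TCDD and 4.25% for PCB 126. Over all 5197 probe sets, 753 had an unadjusted p under 0.05 with TCDD and 877 with PCB 126. Of these 7 chemokines, 2 had one with TCDD and 1 with PCB 126. These were Cx3cl1, the membrane-bound ligand of Cx3cr1, with 0.20 ± 0.07 log2 per decade of TCDD (limma adjusted p = 0.134), and Cxcl10, the ligand of Cxcr3, with 0.09 ± 0.04 for TCDD and 0.12 ± 0.04 for PCB 126 (limma adjusted p = 0.324 and 0.131). Cxcl3, which lies between Cxcl1 and Cxcl6 on the chromosome, stayed between 3.20 and 4.05 log2. The median slope of the 7 was 0.00 for TCDD and 0.03 for PCB 126, beside -0.01 and 0.01 over all probe sets. Of the chemokine receptors, 10 of 18 were on the array and Cxcr4 alone passed the filter, without a call for either chemical. The probe sets of Cxcr2 and Ccr2, the receptors of the CXC members and of Ccl2, had highest values of 3.89 and 3.45 log2 and did not pass.

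Among the cytokines that induce these chemokines and their receptors, 15 of 28 were measured. Lbp, which presents bacterial lipopolysaccharide to its receptor, rose with TCDD by 0.22 ± 0.05 log2 per decade (limma adjusted p = 0.0119), as 1 of 15, near the 3.1% called among all probe sets. With PCB 126 limma called 0 of 15, beside 4.25% of all. An unadjusted p under 0.05 was found for 4 of the 15 with TCDD and 3 with PCB 126, beside 753 and 877 of all 5197. With TCDD these were Lbp, Il1r1, the receptor of interleukin 1, with 0.14 ± 0.04 (limma adjusted p = 0.0505), Cd14 with 0.13 ± 0.04 (0.105) and Il6st with 0.07 ± 0.03 (0.308). With PCB 126 they were the tumour necrosis factor Tnf with 0.05 ± 0.02 (limma adjusted p = 0.0968), Lbp with 0.14 ± 0.05 (0.101) and Lif with 0.04 ± 0.02 (0.262). The Tnf probe set stayed between 2.76 and 3.96 log2, so it was dim. The median slope of the 15 was 0.00 for TCDD and 0.02 for PCB 126, beside -0.01 and 0.01 over all probe sets.

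Of 13 measured subunits and inhibitors of NF-kB and AP-1 factors, 1 rose with TCDD, beside 3.1% of all probe sets called, and with PCB 126 2 rose and 1 fell, beside 4.25%. Cebpb, a transcription factor that drives acute phase genes, had slopes of 0.30 ± 0.05 log2 per decade of TCDD (limma adjusted p = 0.00335) and 0.24 ± 0.05 of PCB 126 (adjusted p = 0.0105), and rose with both. Nfkbia, the inhibitor that NF-kB itself induces, rose with PCB 126 by 0.11 ± 0.03 (limma adjusted p = 0.0166), and Jun, a subunit of AP-1, had a PCB 126 slope of -0.19 ± 0.04 (adjusted p = 0.00487). The median slope of the 13 was 0.05 for both chemicals, beside -0.01 for TCDD and 0.01 for PCB 126 over all probe sets. Of 20 other measured NF-kB target genes, 2 rose with TCDD, the early response gene Ier3 (0.27 ± 0.05, limma adjusted p = 0.00484) and the siderophore-binding lipocalin Lcn2 (0.11 ± 0.03, adjusted p = 0.0144). With PCB 126, Sod2 (0.24 ± 0.06, limma adjusted p = 0.0235) and Lcn2 (0.10 ± 0.03, adjusted p = 0.0281) rose and the phosphatase Dusp1 fell, with -0.15 ± 0.04 (adjusted p = 0.0417). These calls stand beside 3.1% of all probe sets for TCDD and 4.25% for PCB 126. The other 18 and 17 were not called, and the median slope of the 20 was 0.04 for TCDD and 0.03 for PCB 126. With an unadjusted p under 0.05 there were 10 of the 20 for TCDD and 6 for PCB 126, beside 753 and 877 of all 5197. Of the 13 NF-kB and AP-1 genes 5 and 4 had one.

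Macrophages can also make these chemokines, so their markers were set beside them. In cultures of mixed cells, fewer cells of a type and less RNA per cell cannot be told apart. Of 20 listed markers of Kupffer cells and macrophages 10 were on the array and 6 passed the filter, of which 0 rose and 1, the lysozyme Lyz2, fell with each chemical, beside 3.1% of all probe sets called for TCDD and 4.25% for PCB 126. The Lyz2 slope was -0.19 ± 0.04 log2 per decade of TCDD and -0.17 ± 0.04 of PCB 126 (limma adjusted p = 0.00915 and 0.0222). The median slope of the 6 was -0.01 for TCDD and 0.03 for PCB 126, beside -0.01 and 0.01 over all probe sets. A median over 6 probe sets does not tell whether the amount of macrophage RNA changed. Clec4f, a defining marker of Kupffer cells, Csf1r, Itgam and C1qb did not pass, with highest values of 3.92, 3.70, 3.58 and 3.01 log2. The summed signal of the 6 measured markers, in which Lyz2 was the brightest, ran from 8.53 to 8.77 log2 in pool 1 in vehicle and at 10 pM or less. It was 7.52 to 7.60 log2 at 1 nM TCDD or more and 7.81 to 7.93 log2 at 1 nM PCB 126 or more. In pool 2 it ran from 8.21 to 9.02, from 7.88 to 8.41 and from 8.11 to 8.26 log2. In pool 1 the arrays in which Cxcl6 and Ccl2 were high were thus those with the lower summed marker signal, and in pool 2 the groups overlapped. Such a sum mostly follows its brightest marker, Lyz2. Of the neutrophil markers, S100a9 did not pass, with a highest value of 3.41 log2, and S100a8 stayed between 3.34 and 4.54 log2. Of 8 measured markers of stellate cells and fibroblasts, which can also make Ccl2, Tagln alone was called, with a PCB 126 slope of -0.48 ± 0.09 log2 per decade (limma adjusted p = 0.00549). Their summed signal in pool 1 ran from 12.10 to 12.94 log2 in vehicle and at 10 pM or less, from 11.94 to 12.01 at 1 nM TCDD or more and from 10.72 to 11.47 at 1 nM PCB 126 or more. In pool 2 these groups overlapped, at 11.33 to 12.67, 11.94 to 12.34 and 11.74 to 12.31 log2. Of the bile duct cell markers 3 of 8 were measured, Spp1, Epcam and Cd24, and limma called 0 for either chemical, with 1 at an unadjusted p under 0.05 for each. Their summed signal in pool 1 ran from 7.502 to 7.86 log2 in vehicle and at 10 pM or less, from 8.72 to 9.02 at 1 nM TCDD or more and from 7.68 to 8.82 at 1 nM PCB 126 or more. In pool 1 it was thus higher on the high-dose TCDD arrays, on which Cxcl6 and Ccl2 were high too, and in pool 2 the groups overlapped. Of 10 measured hepatocyte markers limma called 1 downward with TCDD and 1 upward with PCB 126, beside 3.1% and 4.25% of all probe sets. With an unadjusted p under 0.05 there were 4 and 6, beside 753 and 877 of all 5197 probe sets. The median slope of the 10 was -0.05 for TCDD and -0.03 for PCB 126, beside -0.01 and 0.01 over all probe sets. The summed hepatocyte signal of pool 1 was also lower at 1 nM TCDD or more, 14.82 to 14.91 log2 against 15.09 to 15.29, and overlapped in pool 2. The sums of the measured endothelial and neutrophil markers overlapped in both pools. The part of any of these cell types in the chemokine values was not tested.

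**Figure D4:**
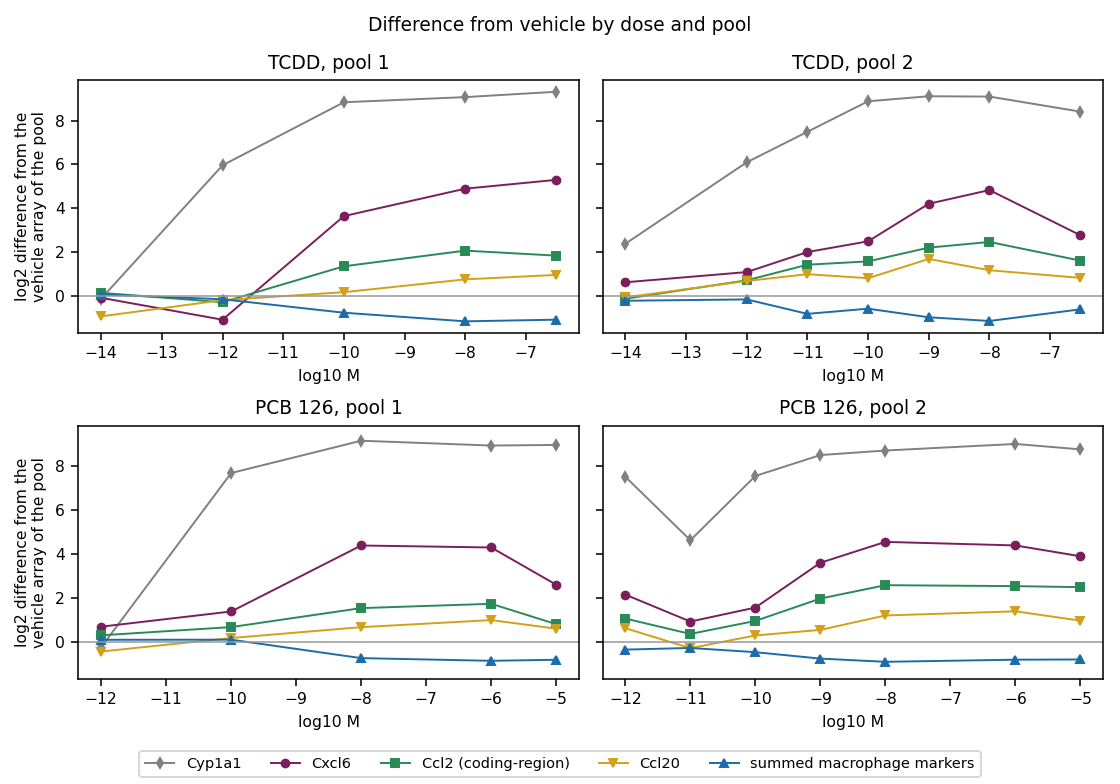
Difference from the vehicle array of the same pool in log2 (vertical axis, shared) against log10 molar dose (horizontal axis) for Cyp1a1, Cxcl6, Ccl2 on its coding-region probe set, Ccl20 and the summed signal of 6 macrophage markers, 1 point per array, in 4 panels by chemical and pool. Cyp1a1 stood far above vehicle at 1 pM TCDD in both pools, where Cxcl6 lay below vehicle in pool 1 and above it in pool 2. Cxcl6 and Ccl2 were above vehicle on every array at 0.1 nM or more. The macrophage sum, in which Lyz2 was the brightest marker, was at or below vehicle on most arrays.

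The TCDD doses at which Cyp1a1 and Cxcl6 stood above vehicle were set side by side. At 1 pM TCDD, Cyp1a1 was at 9.41 log2 in pool 1 and 9.37 in pool 2, against 3.45 and 3.28 in vehicle. At the same dose Cxcl6 was at 1.77 and 2.59 log2, against 2.85 and 1.5 in vehicle. The Ccl2 coding-region probe set was at 8.79 and 7.67 log2, against 9.08 and 6.96. Cyp1a1 was thus far above vehicle in both pools at a dose where Cxcl6 and Ccl2 were below vehicle in pool 1 and above it in pool 2.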

How the data were processed

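Expression was measured on 26 short-oligonucleotide arrays, 1 per sample, grouped by chemical, dose and pool per the labels. The authors deposited log2 expression values. The submitters' processing notes name GCRMA 2.8.0 and RMA, and the sources used here do not state which of them made these values, or with what settings. Every column belonged to a sample and 0 columns were left over.

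Control probe sets (59) were removed, and of the 8740 remaining, the 5197 in which the second-highest value exceeded the median of all values, 3.71 log2, were tested. In the platform's annotation, 1 gene is named for 7006 probe sets, several for 308 and none for 1426. The tests used lmFit and eBayes (trend and robust options) of limma 3.58.1 under R 4.3.3, calling Benjamini-Hochberg adjusted p below 0.05 over the 5197. A trend model held pool, chemical and 1 slope per chemical on the log10 of the dose (20 residual degrees of freedom), a group model held pool and 15 groups (10), in which groups of 1 array are assumed to vary like the others, and a further model held slopes by pool (16). Pool was a block because the labels place same-numbered arrays in cells of the same animals. The dose slope of the trend model was tested on simulated data, and no such test is reported here for the other steps.

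All probe sets of the members are named, with the 5 genes most like each by Pearson r over 26 arrays after removal of pool means. From each list the called genes and up to 6 with the smallest p are named, but the hepatocyte markers are only counted. The members, gene lists and marker lists were chosen with earlier results of these data known. Contrasts between doses or chemicals with a TCDD value are therefore given for the members with limma's interval and no test. The alternatives were other scalings, filters, dose scales, dose ranges and variance moderation, no block, each pool alone and each array left out. Promoter sequence came from RefSeq (GRCr8) by symbol, for 4 of 5 members.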

Additional observations from a re-analysis of the deposited data

How the results depend on the processing

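Slopes are in log2 per decade of dose, and the cause of each change below was not tested unless the setting drops arrays. Leaving out each of the 26 arrays in turn moved the PCB 126 slope between 0.38 and 0.53 for Cxcl6. For the coding-region probe set of Ccl2 it moved between 0.19 and 0.29 (limma adjusted p from 0.0124 to 0.101). For the Ccl2 mRNA probe set it moved between 0.12 and 0.21 (0.0431 to 0.269), and for Ccl20 between 0.14 and 0.20 (0.0117 to 0.105). The PCB 126 call was lost for Ccl2 on its coding-region probe set and for Ccl20 with array medians centred (0.20 and 0.15), on doses with both pools (0.19 and 0.14), with no replicate block (0.25 and 0.18), in pool 1 alone (0.13 and 0.17) and in pool 2 alone (0.30 and 0.16). It was also lost for that Ccl2 probe set with the gene's probe sets averaged (0.19) and, as an alternative chosen after seeing the data, without the pool 2 arrays at 1 pM and 10 µM PCB 126 (0.23), and for Ccl20 on doses up to 10 nM (0.23), also chosen after seeing the data. The Cxcl6 slope was 0.53 per rank on the rank of the dose and 0.63 with the top dose left out. With the vehicle set at a dose 1 decade under the lowest it was 0.57. Without the pool 2 arrays at 1 pM PCB 126 and 316 nM TCDD, chosen after seeing the data, it was 0.46. The Ccl2 mRNA probe set became called with the vehicle so set (0.23) and with the top dose left out (0.27). The PCB 126 slope of Cxcl2, near 0, turned positive on doses up to 10 nM (0.16), with no replicate block (0.0019), in pool 1 alone (0.019), with quantile normalization (0.0055), on dose rank (0.0037), with the vehicle so set (0.014), with the top dose left out (0.067), without the pool 2 arrays at 1 pM and 10 µM (0.0503) and over the single arrays left out (from -0.019 to 0.0499). The slope difference, TCDD minus PCB 126, turned sign with the vehicle so set for Cxcl6 (-0.036), the Ccl2 coding-region probe set (-0.029) and Ccl20 (-0.0035), in pool 2 alone for that Ccl2 probe set (-0.011) and Ccl20 (-0.023), without the pool 2 arrays at 1 pM and 10 µM PCB 126 for Ccl20 (-0.035), and on doses up to 10 nM (-0.10) and with the top dose left out (-0.0081) for Cxcl2, and over single arrays left out it ran from -0.011 to 0.067 for Ccl20. At 1 pM the matched difference of Cxcl2 was 0.019 with quantile normalization and ran from -0.18 to 0.048 over single arrays left out, and that of Ccl20 ran from -0.17 to 0.49. At 10 nM it ran from -0.082 to 0.50 and from -0.11 to 0.44 for the 2 Ccl2 probe sets and from -0.0041 to 0.069 for Ccl20. The contrast of 316 nM with 10 nM TCDD was 0.10 for Ccl20 with quantile normalization, and over single arrays left out ran from -0.40 to 0.26 for Ccl20, -2.34 to 0.68 for Cxcl6 and -0.56 to 0.42 for the Ccl2 mRNA probe set. The contrast of the PCB 126 doses above 10 nM with 10 nM was -0.026 for Ccl20 with medians centred, and ran from -0.49 to 0.15 and -0.52 to 0.023 for the Ccl2 probe sets. The number of arrays, 1 per pool and dose, limits the precision of every value, and the signal of Cxcl6 near background limits its folds.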
